A study of Sparus aurata with 9 samples.

Results

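The respiratory chain and the ATP synthase of white skeletal muscle were examined complex by complex in gilthead seabream (Sparus aurata) that had been kept for 8 months at 3 flow speeds. A gene model belonged to the set when its description named a subunit or a complex of NADH dehydrogenase (complex I), succinate dehydrogenase (complex II), the cytochrome b-c1 complex or cytochrome c1 (complex III), cytochrome c, cytochrome c oxidase (complex IV) or ATP synthase (complex V), and did not contain the word assembly. Of 61849 gene models, 144 met this rule, made up of 32 of complex I, 9 of complex II, 17 of complex III, 3 of cytochrome c, 41 of complex IV and 42 of complex V. The rule reads only the descriptions, but it was set with earlier results of these data known. The text search also caught some models that are not subunits in a strict sense, among them 3 of the translational activator of cytochrome c oxidase 1, 3 of the cytochrome c oxidase 20 homolog and 4 of the ATP synthase subunit s. Of these models 1 had counts, 2 in all 9 fish. A further model, Sa_10430.2.1, is described as related to cytochrome c oxidase subunit 7A and not as that subunit. It had 686 counts over the 9 fish, was tested, and is counted here with complex IV.

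The respiratory chain passes electrons from NADH and succinate to oxygen. Complexes I, III and IV pump protons out of the mitochondrial matrix as the electrons pass, complex II feeds in electrons from succinate without pumping, and ubiquinone and cytochrome c carry electrons between the complexes. The ATP synthase lets the protons flow back and makes ATP from ADP. White muscle of fish is built of fast fibres with few mitochondria that work mainly on glycolysis during bursts, while red muscle with its slow fibres and many mitochondria powers steady swimming.

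White muscle of 9 fish, purchased from a supplier (Culmar, Spain) and then kept in the tanks of the experiment, was measured by RNAseq of poly(A) RNA (TruSeq Stranded mRNA libraries). The fish had swum at 1 body length per second (1 BL/s, n = 3) or at 2 BL/s (n = 3), or had been kept at minimal flow as controls (n = 3). Each fish was a separate animal of similar size and normal morphology. Each speed was run in 1 tank, so the effect of speed and that of the tank cannot be told apart, and p-values measure the spread between fish of 1 tank. In bulk muscle, fewer cells of a type and less RNA per cell cannot be told apart either.

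Total counts per fish lay between 3660245 and 5267310, and 14465 gene models had a count. On principal component 1, which held 30.8% of the variance, the library of fish 3 from the 1 BL/s tank lay at 53.6 and the other 8 libraries below 0. In this library long transcripts were low and short transcripts high, with a difference of the median log2 deviations (long minus short) of -1.44, against -0.08 to 0.52 in the other 8. Both lists were chosen by gene description and no length was measured. Most tested models of the short list were cytosolic ribosomal protein models, so length and ribosomal protein level cannot be told apart here. The library of fish 2 at 2 BL/s had 981 normalized counts of slow fibre contractile genes, against 6.61 to 85.4 in the other 8. This subset of genes was chosen after its values were seen. Results that rest on these 2 libraries are given with and without them.

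Counts were found for 61 of the 144 members, and 83 had no count in any fish. The 61 comprised 19 of complex I, 3 of complex II, 4 of complex III, 1 of cytochrome c, 18 of complex IV and 16 of complex V. A filter on low counts kept 45 for testing in each comparison, with 17, 3, 4, 1, 12 and 8 in the same order, and the 16 counted members it left out had at most 85 counts over all fish. Many descriptions have lost the letter or number of the subunit and read only "cytochrome c oxidase subunit mitochondrial" or "ATP synthase subunit mitochondrial". Such models are named by their identifiers, and a role is given only where the description is specific. As far as the descriptions tell, no member is a subunit encoded by mitochondrial DNA. Values for a complex therefore cover its listed members and not the whole complex. The tables hold no gene lengths, so levels are compared between fish and not between genes.

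The members took a small share of all counts, and the share differed by fish more than by counting error. The 3 controls had 0.323%, 0.362% and 0.378%, the 1 BL/s fish 0.437%, 0.465% and 0.435%, and the 2 BL/s fish 0.352%, 0.515% and 0.42% (95% Wilson intervals at most 0.00733 percentage points either way, counting error only). All 3 fish at 1 BL/s lay above all controls, while the fish at 2 BL/s ranged from among the controls to above every other fish. TMM normalization lowered the values at 2 BL/s relative to plain shares and raised those of fish 3 at 1 BL/s. This fish had the lowest share of its group but the highest sum of all fish after TMM. The normalized counts summed to 15825, 15804 and 17626 for the controls, 18338, 20101 and 23580 for the 1 BL/s fish, and 15300, 18770 and 16410 for the 2 BL/s fish. On this scale the 1 BL/s fish were again above all controls, and at 2 BL/s only fish 2 was, which also lay above the lowest fish at 1 BL/s.

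**Figure D1:**
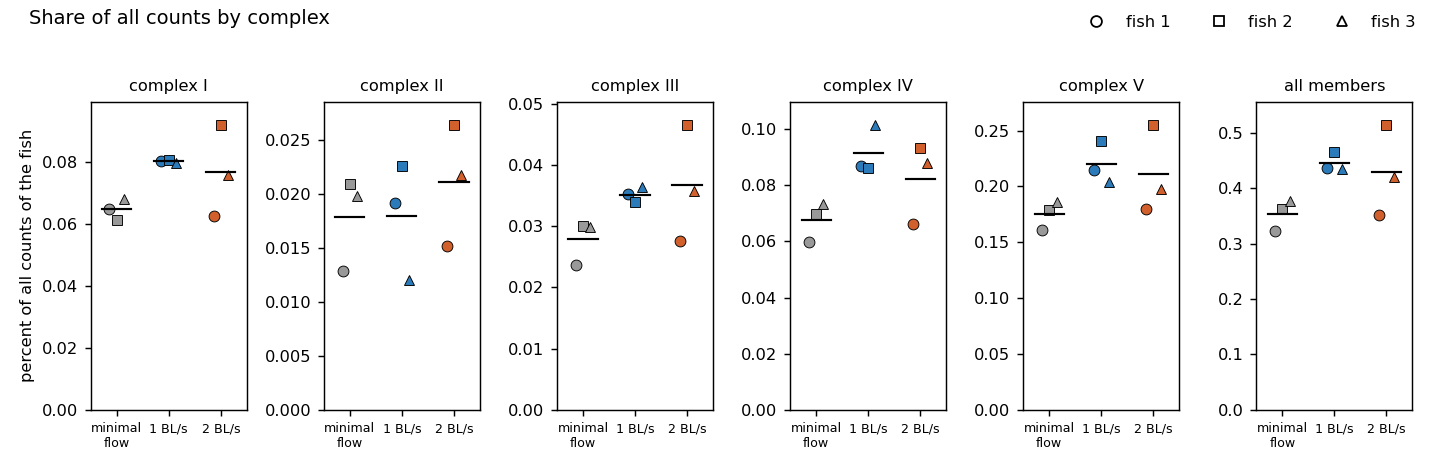
Share of all counts taken by the members of each complex (y axis, percent of the counts of a fish, from 0) at minimal flow, 1 BL/s and 2 BL/s. Symbols are single fish (circle fish 1, square fish 2, triangle fish 3) and lines are means of 3 fish. For all members the fish at 1 BL/s lie between 0.435% and 0.465% and the controls at or below 0.378%, while the fish at 2 BL/s spread from 0.352% to 0.515%.

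At 1 BL/s most members were higher than in the controls by a small amount. The log2 fold change was above 0 for 41 of 45 members, against 48.5% of all 3902 gene models tested, and the median was 0.32 for the members (1.24-fold) and -0.01 for all gene models. Complex IV had the highest median (0.41), followed by complex III (0.36), complex I (0.29) and complex V (0.27), and complex II had a median of -0.07. Every tested member of complexes III, IV and V and 15 of 17 of complex I had a log2 fold change above 0, while of complex II 1 of 3 did. The single cytochrome c model that was tested had a log2 fold change of 0.09.

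Few of these differences passed a test on single genes. At an unadjusted p of 0.05, the threshold used in the study, 3 of 45 members rose (1 of complex I and 2 of complex IV), none fell and 42 did not pass, against 1.97% of all gene models called higher and 2.05% called lower. None passed after Benjamini-Hochberg adjustment of edgeR's quasi-likelihood test (smallest adjusted p = 0.966), as was the case for all 3902 gene models, and with DESeq2 no member passed even the unadjusted threshold. The values of all 3 fish at 1 BL/s were above those of all 3 controls for 14 of 45 members (5 of complex I, 1 of complex II, 2 of complex III, 3 of complex IV and 3 of complex V), against 5.84% of all gene models, and were below them for none, against 5.07%. Without fish 3 at 1 BL/s the median of the members was 0.22, 17 of 45 members did not overlap and were higher (9.28% of all gene models), and 0 passed the unadjusted threshold of edgeR. Leaving out any 1 of the 3 controls also left 0 members past it, and without fish 1 at 1 BL/s 1 of 46 members passed. The share of all gene models called in these fits is not given here, so these counts cannot be set against it.

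At 2 BL/s the members as a whole were level with the controls. The log2 fold change was above 0 for 23 and below 0 for 22 of 45 members, against 49.9% of all gene models above 0, with a median of 0.00, equal to that of all gene models. The medians by complex lay between -0.08 (complex I) and 0.14 (complex III), with 0.01 for complex II, 0.06 for complex IV and -0.02 for complex V. No member passed the unadjusted threshold by edgeR, DESeq2 or limma, against 4.46% of all 3947 gene models by edgeR (1.75% higher and 2.71% lower), and the smallest p by edgeR's quasi-likelihood test was 0.125. Groups did not overlap for 2 members that were higher (4.36% of all gene models) and 1 that was lower (5.42%). Without fish 2 at 2 BL/s, the library with the most counts of slow fibre contractile genes, 12 members were above 0 and 33 below. The median was then -0.11, and 8 members did not overlap and were lower, against 9.25% of all gene models. With scaling by library size alone the median of the members was 0.24 and that of all gene models 0.22, so the difference between them was 0.01.

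Between the speeds, most members were lower at 2 BL/s than at 1 BL/s. The log2 fold change was below 0 for 40 of 45 members, while 52.6% of all 3963 gene models tested were above 0, and the median was -0.30 for the members and 0.03 for all gene models. All 17 members of complex I, all 8 of complex V, 11 of 12 of complex IV and 3 of 4 of complex III were below 0, and the medians were -0.35, -0.29, -0.47 and -0.23 in this order, while complex II had a median of 0.08. At the unadjusted threshold 2 members fell (1 of complex I and 1 of complex IV), against 2.27% of all gene models called lower, and none rose, against 1.97% called higher. None passed after adjustment (smallest adjusted p of a member by edgeR's quasi-likelihood test 0.897). All 3 fish at 2 BL/s were below all 3 fish at 1 BL/s for 16 of 45 members (8 of complex I, 1 of complex III, 4 of complex IV and 3 of complex V), against 5.85% of all gene models, and above them for none, against 5.05%. Without fish 3 at 1 BL/s the median was -0.24, 18 members did not overlap and were lower (9.77% of all gene models), and 0 passed the unadjusted threshold of edgeR, as was also the case without fish 1 at 2 BL/s. With fish 3 at 2 BL/s left out 1 of 47 members passed, and with fish 1 at 1 BL/s left out 4 of 47 did. The share of all gene models called in each of these fits is not given here, so these counts cannot be set against it. Without fish 2 at 2 BL/s, 44 of 45 members were below 0 and 28 did not overlap (8.93%).

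These values at 2 BL/s depended on the scaling. With library size alone, all gene models shifted up by a median of 0.23 in the comparison of the speeds, 32 of 45 members were below 0, the median of the members was -0.09, the median of complex III turned to 0.02, and only 1 member did not overlap (2.17% of all gene models). Relative to the median of all gene models, the members were lower by a similar amount on both scales, at -0.33 with TMM and -0.31 with library size alone. In the comparison of 1 BL/s with the controls the same 2 differences were 0.33 and 0.31. All 3 comparisons share fish (the first 2 the controls, the first and last the 1 BL/s fish, the last 2 the 2 BL/s fish), so they are not independent of each other.

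**Figure D2:**
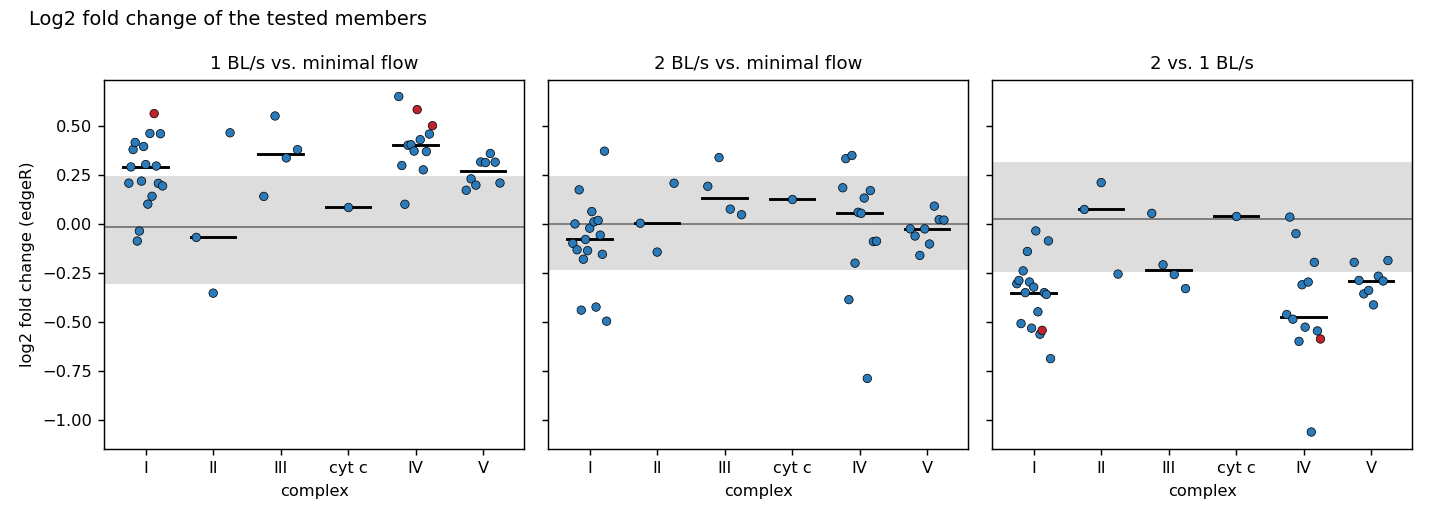
Log2 fold change by edgeR (y axis) of each tested member by complex (x axis) in the 3 comparisons, TMM normalized. Points are gene models, red where the unadjusted p was below 0.05, black lines are medians of a complex, and the grey line and band are the median and the middle 50% of all gene models tested. At 1 BL/s vs. minimal flow 41 of 45 points lie above 0, at 2 BL/s vs. minimal flow 23 do, and at 2 vs. 1 BL/s 40 lie below 0, where the median of complex III turns to 0.02 with scaling by library size alone.

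By fish, on the TMM scale, fish 3 at 1 BL/s was the highest of all 9 in complexes I, III, IV and V, whereas by share of all counts fish 2 at 2 BL/s was above it in complexes I (0.0922% against 0.0798%), III (0.0466% against 0.0364%) and V (0.255% against 0.204%). In complexes I and V the share of fish 3 was the lowest of the 1 BL/s fish, so its rank there depended on the scaling. The median log2 deviation of the complex I members from their mean over the 9 fish was 0.02, -0.25 and -0.02 for the controls, 0.19, 0.11 and 0.33 for the 1 BL/s fish, and -0.26, -0.02 and -0.13 for the 2 BL/s fish, so the fish at 1 BL/s did not overlap with either other group. For complex IV the controls had -0.26, -0.22 and -0.03, the 1 BL/s fish 0.04, 0.06 and 0.71, and the 2 BL/s fish -0.36, 0.01 and -0.04. Here too the 1 BL/s fish were above all others, but fish 1 and 2 only narrowly so. By share of all counts in complex IV, fish 2 and 3 at 2 BL/s (0.0932% and 0.0879%) lay above fish 1 and 2 at 1 BL/s (0.087% and 0.0861%). Without fish 3 at 1 BL/s the median log2 fold change of complex IV was 0.22 in place of 0.41 against the controls, and -0.13 in place of -0.47 between the speeds. For complex V the controls had -0.06, -0.24 and 0.03, the 1 BL/s fish 0.12, 0.21 and 0.34, and the 2 BL/s fish -0.18, 0.04 and -0.15, again without overlap of the 1 BL/s fish with the others. In complex III, fish 2 at 2 BL/s (0.25) lay above fish 1 and 2 at 1 BL/s (0.08 and 0.01), and in complex II the lowest of all fish was fish 3 at 1 BL/s (-0.41).

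**Figure D3:**
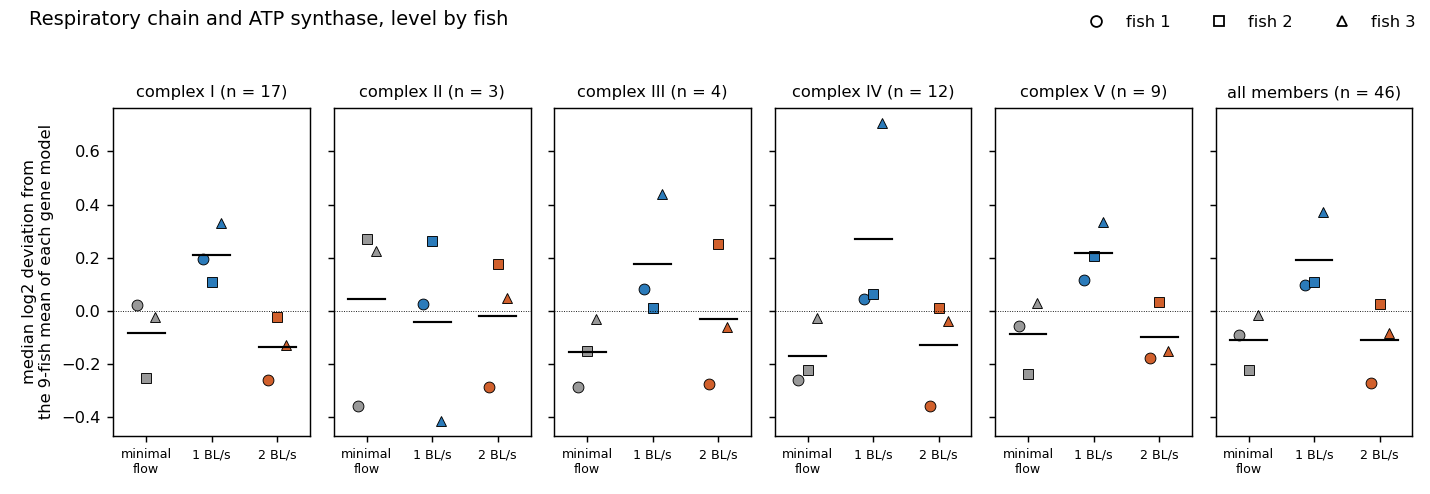
Median log2 deviation of the members of each complex from their mean over the 9 fish (y axis, TMM normalized), by fish at minimal flow, 1 BL/s and 2 BL/s; n is the number of members past the low-count filter over 9 fish. Symbols are single fish and black lines are means of 3 fish. In complexes I, IV and V the fish at 1 BL/s lie above the other 6, fish 3 highest (0.33, 0.71 and 0.34), whereas in complex II fish 3 is the lowest at -0.41. By share of all counts, fish 2 at 2 BL/s lay above fish 1 and 2 at 1 BL/s in complexes I, IV and V.

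Complex I takes electrons from NADH. Most of its tested members were accessory subunits of the alpha and beta subcomplexes, which surround the catalytic core. Subunit 12 of the alpha subcomplex (Sa_6134.1.1) had 165, 163 and 230 normalized counts at 1 BL/s, against 130, 103 and 141 in the controls. All 3 fish at 1 BL/s were above all controls, and the log2 fold change was 0.57 (SE 0.25, 1.48-fold, unadjusted p = 0.0476 and adjusted p = 0.966 by edgeR). At 2 BL/s the same model had 113, 137 and 128 normalized counts, all below the 1 BL/s fish and within the range of the controls. It fell by 0.54 on the log2 scale relative to 1 BL/s (SE 0.24, unadjusted p = 0.0476, adjusted p = 0.897 by edgeR), and its log2 fold change against the controls was 0.02. When fish 3 at 1 BL/s was left out, neither difference of this model passed (unadjusted p = 0.132 and 0.111 by edgeR).

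Subunit 13 of the alpha subcomplex (Sa_9128.5.1) was the member with the smallest p at 2 BL/s. It had 214, 305 and 251 normalized counts at 2 BL/s, against 172, 190 and 234 in the controls, and 228, 298 and 300 at 1 BL/s. Fish 1 at 2 BL/s and fish 3 of the controls overlapped, and the log2 fold change of 0.37 at 2 BL/s (SE 0.22) did not pass (unadjusted p = 0.125 by edgeR). This subunit was about as high at 2 BL/s as at 1 BL/s, with a log2 fold change of -0.08 between the speeds. With library size alone its log2 fold change at 2 BL/s was 0.61 (unadjusted p = 0.0382 by edgeR), on a scale on which the median of all gene models was 0.22.

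Among the members of complex I with the most counts, subunit 9 of the beta subcomplex (Sa_494.4.1) had 345, 365 and 513 normalized counts at 1 BL/s, against 307, 265 and 309 in the controls, without overlap. In the 2 BL/s fish it had 229, 360 and 297, which spanned the whole range of the controls. A beta subcomplex model without a number (Sa_29341.2.1) averaged 477 ± 26.7 in controls, 592 ± 114 in 1 BL/s fish and 468 ± 48.3 in 2 BL/s fish (normalized counts, SD, n = 3 each), and the groups overlapped in all 3 comparisons. An alpha subcomplex model without a number (Sa_37144.2.1) was nearly level, at 437 ± 91.4, 471 ± 67.5 and 455 ± 51.6 in the same order. Of the 17 tested members of complex I, subunits 8 and 5 of the alpha subcomplex were the 2 with a log2 fold change below 0 at 1 BL/s (-0.03 and -0.09).

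Complex II, which is also the enzyme of the citric acid cycle that oxidizes succinate, had medians of -0.07, 0.01 and 0.08 in the 3 comparisons, and its difference from the other complexes was not tested. Its flavoprotein subunit (Sa_27153.2.1), which binds succinate, had 469, 553 and 345 normalized counts in 1 BL/s fish and 378, 574 and 476 in 2 BL/s fish, against 335, 555 and 538 in controls. The groups overlapped almost entirely, and the log2 fold changes against the controls were -0.07 (SE 0.28) and 0.01 (SE 0.25). The small cytochrome b subunit (Sa_32494.3.1), part of the membrane anchor, had 170, 200 and 131 normalized counts in 1 BL/s fish and 170, 212 and 193 in 2 BL/s fish, against 175, 227 and 236 in controls. In both models fish 3 at 1 BL/s was at or near the bottom of all fish, and without it the median of complex II at 1 BL/s was 0.10 in place of -0.07. With fish 2 at 1 BL/s left out it was -0.24, and with single controls left out it lay between -0.26 (without fish 1) and 0.052 (without fish 2). The iron-sulfur subunit (Sa_689.11.1), which hands the electrons on to ubiquinone, had 165, 222 and 173 normalized counts at 1 BL/s, against 121, 131 and 151 in the controls. Its groups did not overlap, but the difference did not pass (log2 fold change 0.47, SE 0.23, unadjusted p = 0.0753 by edgeR). Its values at 2 BL/s were 110, 175 and 179 normalized counts, with fish 1 below all controls and the other 2 above them.

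The 4 tested members of complex III have no subunit number in their descriptions. Sa_17057.2.1 had 318, 266 and 473 normalized counts at 1 BL/s, against 206, 262 and 248 in the controls. Fish 2 at 1 BL/s was only just above the highest control and fish 3 far above it, and the log2 fold change of 0.55 (SE 0.26) did not pass (unadjusted p = 0.0645 by edgeR). The 2 BL/s fish had 215, 404 and 284, and fish 1 lay among the controls. Sa_22662.4.1 varied least within groups, with 370, 381 and 424 at 1 BL/s, against 290, 288 and 320 in the controls, and a log2 fold change of 0.38 (SE 0.20, unadjusted p = 0.0887 by edgeR). The counts of the 2 BL/s fish were 292, 326 and 307, below all fish at 1 BL/s and overlapping with the controls. Sa_14299.2.1 averaged 380 ± 42 in controls, 422 ± 63.1 in 1 BL/s fish and 433 ± 52.6 in 2 BL/s fish. Sa_17679.2.1 averaged 372 ± 41.9, 473 ± 93.6 and 391 ± 85.9 in the same order, and in both models all groups overlapped.

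Cytochrome c, the small soluble carrier between complexes III and IV, was represented by 1 model with few counts (Sa_33485.2.1). It had 24.4, 35.6 and 56.9 normalized counts in 1 BL/s fish and 38.7, 48.8 and 30.0 in 2 BL/s fish, against 31.5, 42.9 and 33.7 in controls. The 1 BL/s fish held both the lowest and the highest value, and the sign of all 3 of its fold changes turned when single fish were left out.

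Complex IV reduces oxygen to water and held 2 of the 3 members that rose at 1 BL/s. Sa_39333.18.1 had 399, 375 and 599 normalized counts at 1 BL/s, against 253, 316 and 340 in the controls. All fish at 1 BL/s were above all controls, with fish 3 far above the other 2, and the log2 fold change was 0.59 (SE 0.25, 1.5-fold, unadjusted p = 0.0447 and adjusted p = 0.966 by edgeR). Fish at 2 BL/s had 270, 337 and 334, below every fish at 1 BL/s and within the range of the controls, but the difference between the speeds did not pass (log2 fold change -0.53, SE 0.24, unadjusted p = 0.0584 by edgeR). Without fish 3 at 1 BL/s the log2 fold change of this model against the controls was 0.35 (unadjusted p = 0.132 by edgeR).

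Sa_9678.3.1, also a cytochrome c oxidase subunit without a number, was the only member called in 2 comparisons besides subunit 12 of complex I. It had 437, 446 and 595 normalized counts at 1 BL/s, against 348, 317 and 372 in the controls, a log2 fold change of 0.50 (SE 0.22, 1.42-fold, unadjusted p = 0.0448, adjusted p = 0.966 by edgeR). Its counts at 2 BL/s were 271, 354 and 347, and it fell by 0.59 on the log2 scale relative to 1 BL/s (SE 0.22, unadjusted p = 0.0278, adjusted p = 0.897 by edgeR). The 1 BL/s fish did not overlap with either other group. With fish 3 at 1 BL/s left out, the log2 fold changes were 0.35 (unadjusted p = 0.103 by edgeR) and -0.45 (unadjusted p = 0.0583).

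Of the members of complex IV with the most counts, Sa_24554.7.1 had 804, 837 and 1064 normalized counts at 1 BL/s, against 711, 650 and 716 in the controls, without overlap. The 3 fish at 2 BL/s had 596, 762 and 799, all below the fish at 1 BL/s, though fish 3 only narrowly. Subunit 6B1 (Sa_5083.3.1), an accessory subunit on the outer side of the inner membrane, averaged 614 ± 135 in controls, 833 ± 235 in 1 BL/s fish and 671 ± 134 in 2 BL/s fish. Sa_8309.2.1 averaged 582 ± 65, 806 ± 235 and 545 ± 68.6 in the same order, and in both models fish 3 at 1 BL/s was the highest of all fish. The lowest log2 fold changes of any member at 2 BL/s belonged to Sa_5288.1.1, a model with few counts, which had 5.7, 12.9 and 6.6 normalized counts at 2 BL/s, against 13.1, 15.2 and 25.9 at 1 BL/s and 8.1, 18.7 and 16.8 in the controls. Neither of its differences passed (unadjusted p = 0.147 against the controls and unadjusted p = 0.0588 against 1 BL/s by edgeR).

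**Figure D4:**
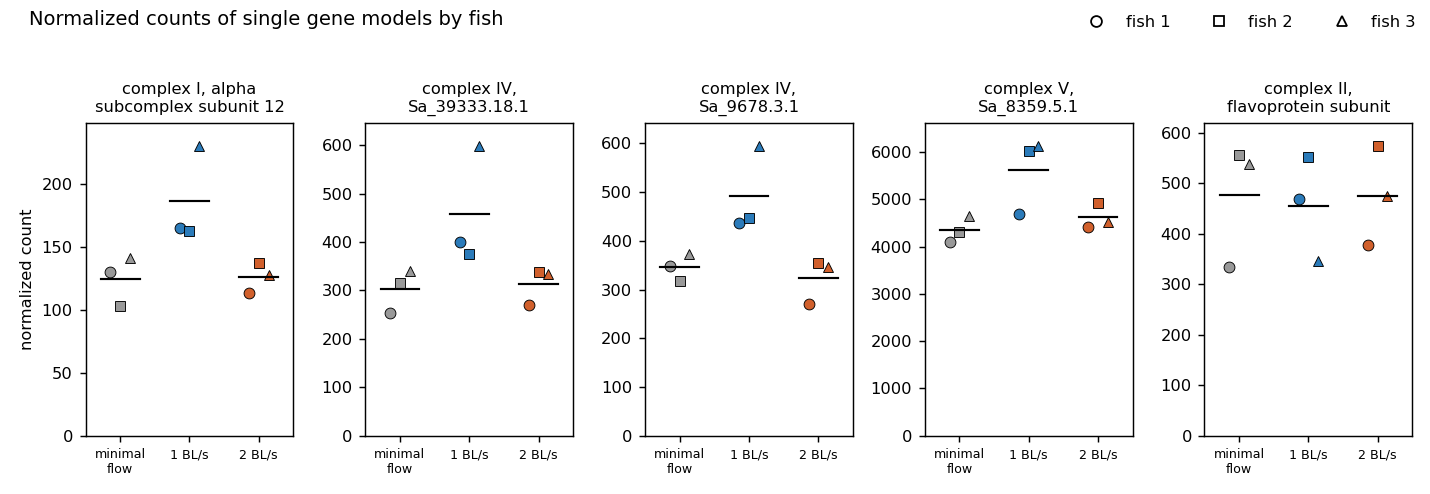
Normalized counts (y axis, from 0, TMM) of 5 single gene models by fish at minimal flow, 1 BL/s and 2 BL/s. Symbols are single fish and lines are means of 3 fish. In the 3 models that rose at 1 BL/s (subunit 12 of complex I, Sa_39333.18.1 and Sa_9678.3.1) and in Sa_8359.5.1 all fish at 1 BL/s lie above all controls, while the flavoprotein of complex II overlaps in all groups and fish 3 at 1 BL/s is low at 345.

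The ATP synthase, complex V, included the member with by far the most counts, Sa_8359.5.1, described only as an ATP synthase subunit. It had 4695, 6018 and 6133 normalized counts at 1 BL/s, against 4099, 4301 and 4650 in the controls. Fish 1 at 1 BL/s was barely above the highest control and the other 2 well above it, and the log2 fold change of 0.36 (SE 0.19, 1.29-fold) did not pass (unadjusted p = 0.0836 by edgeR). At 2 BL/s the model had 4418, 4926 and 4515, which overlapped with both other groups. With this model left out, the summed normalized counts of complex V were 4547 ± 342 in 1 BL/s fish and 3657 ± 631 in 2 BL/s fish, against 3768 ± 258 for the controls (SD, n = 3 each).

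The other 7 tested members of complex V had log2 fold changes between 0.17 and 0.32 at 1 BL/s, and between -0.16 and 0.024 at 2 BL/s, against the controls. Sa_47062.1.1, a subunit of the proton-conducting F(0) part, had 574, 721 and 576 normalized counts at 2 BL/s, against 769, 820 and 929 at 1 BL/s and 663, 616 and 735 in the controls. The 1 BL/s fish were above all others, and the log2 fold change of -0.41 between the speeds (SE 0.20) did not pass (unadjusted p = 0.0715 by edgeR). Sa_9500.3.1 averaged 688 ± 51.8 in controls, 861 ± 74.7 in 1 BL/s fish and 696 ± 45.2 in 2 BL/s fish, with the 1 BL/s fish above all others. Sa_33224.3.1, the complex V member with the smallest p against the controls at 2 BL/s (0.471), averaged 201 ± 29.1, 232.2 ± 15.2 and 180 ± 21.8 in the same order. Sa_27441.1.1 had 1215, 1280 and 1653 normalized counts in 1 BL/s fish and 1064, 1474 and 818 in 2 BL/s fish, against 1125, 1090 and 1298 in controls, and its groups overlapped.

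Genes that work with the chain were followed by 6 lists. Of the further complex I models that the text rule does not reach (described as iron-sulfur, flavoprotein or 75 kDa subunits, 7 tested against the controls and 8 between the speeds), none passed the unadjusted threshold in any comparison, but all 7 had log2 fold changes above 0 at 1 BL/s (median 0.34) and all 8 were lower at 2 than at 1 BL/s (median -0.30), with 5 of 7 above 0 at 2 BL/s against the controls (median 0.07). The list holds subunits that carry the electrons inside complex I, but also iron-sulfur subunit 5 (Sa_9655.2.1), an accessory subunit, and most of its iron-sulfur models have lost their number. Of 10 assembly factors, a list that includes VMA21 of the vacuolar ATPase, 0 passed in any comparison by edgeR at the unadjusted threshold, with medians of 0.31 at 1 BL/s, 0.07 at 2 BL/s and -0.33 between the speeds.

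Carriers and kinases that exchange ADP, ATP and phosphate across the mitochondrial membranes (7 tested, none passing) had medians of 0.17 at 1 BL/s, 0.17 at 2 BL/s and -0.04 between the speeds. In the citric acid cycle list, 1 of 7 rose at 1 BL/s, against 1.97% of all gene models called higher. It was a cytoplasmic malate dehydrogenase model (Sa_30954.1.1, log2 fold change 0.97, unadjusted p = 0.0124 by edgeR, and 0.0619 without fish 2 at 1 BL/s), which is an enzyme of the cytosol and not of the cycle itself. At 2 BL/s this model had a log2 fold change of 0.74 that did not pass (unadjusted p = 0.058 by edgeR). It passed with DESeq2 (unadjusted p = 0.0498), and by edgeR with library size alone (0.0363), with the replicate block (0.0115) and without the low-count filter (0.00919). By edgeR it also passed with fish 1 at 2 BL/s (0.00683) or fish 2 of the controls (0.0384) left out. It did not pass with limma (unadjusted p = 0.0755), or by edgeR with size factors of DESeq2 (0.0604) or in a fit of all 9 fish (0.0595). Nor did it pass by edgeR without fish 2 or 3 at 2 BL/s (unadjusted p = 0.19 and 0.169) or fish 1 or 3 of the controls (0.187 and 0.0955). None of the list passed in the other comparisons by edgeR with TMM. The medians of this list were 0.15, 0.11 and 0.04, closer to 0 than those of complexes I, III, IV and V at 1 BL/s. Ubiquinone synthesis had 2 tested models, none passing, with medians of 0.25, -0.16 and -0.41.

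Regulators of mitochondrial biogenesis had 4 tested models at 1 BL/s, 3 at 2 BL/s and 4 between the speeds, and none rose. At 2 BL/s 1 model fell both against the controls (2.71% of all gene models called lower) and against 1 BL/s (2.27%). It was a model of the coactivator PGC-1alpha (Sa_30678.1.1), which in mammals drives the expression of respiratory genes. It had 30.2, 11.9 and 27.2 normalized counts at 2 BL/s, against 18.3, 219 and 50.5 in the controls and 57.4, 45.7 and 46.6 at 1 BL/s. Fish 2 of the controls was far above all others and fish 1 of the controls overlapped with 2 BL/s, while all fish at 2 BL/s lay below all fish at 1 BL/s. The log2 fold change was -2.03 against the controls (SE 0.77, unadjusted p = 0.025, adjusted p = 0.996 by edgeR) and -1.09 against 1 BL/s (SE 0.36, unadjusted p = 0.0136, adjusted p = 0.897 by edgeR). Without fish 2 of the controls the difference to the controls did not pass (log2 fold change -0.58, unadjusted p = 0.28 by edgeR), nor did it without fish 2 at 2 BL/s (-1.73, unadjusted p = 0.0862), and it did not pass with limma (unadjusted p = 0.0861) or the replicate block (unadjusted p = 0.125). It passed with DESeq2 (unadjusted p = 0.044), and by edgeR with library size alone (0.0466) and in a fit of all 9 fish (0.0141). Without the low-count filter it also passed after adjustment (log2 fold change -2.04, adjusted p = 6e-07 by edgeR). Other gene models also passed after adjustment in that fit, whereas none of the 3947 kept by the filter did by edgeR with TMM. The difference between the speeds passed when any 1 of its 6 fish was left out, but not in a fit of all 9 fish (log2 fold change -1.10, unadjusted p = 0.146 by edgeR). Another PGC-1alpha model (Sa_23509.1.1, 38 counts over all fish) was not tested. The PGC-1beta model (Sa_24183.1.1) had a log2 fold change of 0.41 at 2 BL/s against the controls (unadjusted p = 0.341 by edgeR). The medians of this list were -0.33 at 1 BL/s, -0.20 at 2 BL/s and -0.39 between the speeds.

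Markers of fibre type and other cells, and the lists of long and short transcripts, were set beside the members, and their part in the results was not tested. Of fast muscle genes, 2 of 30 fell at 1 BL/s (median -0.12), 9 of 30 fell at 2 BL/s (median -0.30) and 1 of 29 fell between the speeds (median -0.03), and none rose. Of all gene models, 2.05%, 2.71% and 2.27% were called lower in these comparisons, and 1.97%, 1.75% and 1.97% higher. The list of slow and red muscle had 43 models, 17 with a count. Its summed normalized counts were 984 to 1191 in 1 BL/s fish and 510 to 1713 in 2 BL/s fish, against 658 to 1254 in controls, and the myoglobin model was at 0 in every fish. Of its tested models 1 of 2 rose at 1 BL/s, 1 of 2 fell at 2 BL/s and 2 of 3 fell between the speeds, all of them heart-type fatty acid-binding proteins, which carry fatty acids in the cytosol. In fish 2 at 2 BL/s, Sa_36059.3.1 and Sa_32694.2.1 of these proteins had 683 and 48.8 normalized counts. Fish 1 and 3 at 2 BL/s had 446 and 592 for the first, and 57.6 and 76.9 for the second. The controls had 576, 916 and 1177 for the first, and 61.0, 52.8 and 63.8 for the second. The contractile genes of this list, a subset chosen after its values were seen, had 18.3, 14.2 and 85.4 normalized counts in 1 BL/s fish and 6.61, 981 and 8.45 in 2 BL/s fish, against 21.4, 8.80 and 12.4 in controls. Fish 2 at 2 BL/s, which held nearly all of them, was the highest of its group for the members as a whole, and stood below fish 3 at 1 BL/s after TMM normalization (18770 against 23580 normalized counts) but above it in the share of all counts (0.515% against 0.435%).

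Red blood cell genes summed to 271 to 953 normalized counts in 1 BL/s fish and 135 to 376 in 2 BL/s fish, against 137 to 251 in controls, with the maximum in fish 3 at 1 BL/s. Of 2 tested models 1 rose at 1 BL/s (hemoglobin subunit alpha-A), against 1.97% of all gene models called higher, and none in the other comparisons. This model made up most of the sums, with 936 normalized counts in fish 3 at 1 BL/s. The other, a band 3 model (Sa_19742.1.30), had a log2 fold change of -0.66 at 1 BL/s that did not pass (unadjusted p = 0.332 by edgeR). In fish 3 at 1 BL/s it had 1.29 normalized counts, the lowest of all fish. Leukocyte genes had 1 tested model, which did not pass, and sums of 56.6 to 90.5 in 1 BL/s fish and 25.5 to 71.3 in 2 BL/s fish, against 42.5 to 69.3 in controls. The models of the adipocyte list summed to 592 to 1201 in 1 BL/s fish and 766 to 855 in 2 BL/s fish, against 813 to 993 in controls. Of this list 1 of 7 rose between the speeds, a perilipin-3-like model, against 1.97% of all gene models called higher. The models with the most counts were described as adiponectin receptor 2 (4888 counts over all fish) and leptin receptor gene-related (1285). These are descriptions of receptors or related to them, and whether the sums follow the amount of fat cells was not tested.

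Fish 3 at 1 BL/s was the fish in which short transcripts were highest relative to long ones, and on the TMM scale, though not by share of all counts in complexes I, III and V, it was also the highest in complexes I, III, IV and V. Of 32 long transcripts 2 fell at 1 BL/s (median -0.36), 1 of 34 fell at 2 BL/s (median -0.17) and none of 33 passed between the speeds (median 0.13). Of 49 short transcripts 1 rose at 1 BL/s (median 0.10), 11 fell at 2 BL/s (median -0.28) and 3 fell between the speeds (median -0.36). Of all gene models, 2.05% were called lower at 1 BL/s, 2.71% at 2 BL/s and 2.27% between the speeds, and 1.97% higher at 1 BL/s. All 11 that fell at 2 BL/s were cytosolic ribosomal protein models, as were most of the 49. In fish 1 and 2 at 1 BL/s the difference of long and short transcripts was 0.04 and 0.27, within the range of the controls (-0.08 to 0.52), and the median deviation of the members was 0.10 and 0.11, above that of all controls (-0.22 to -0.02).

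**Figure D5:**
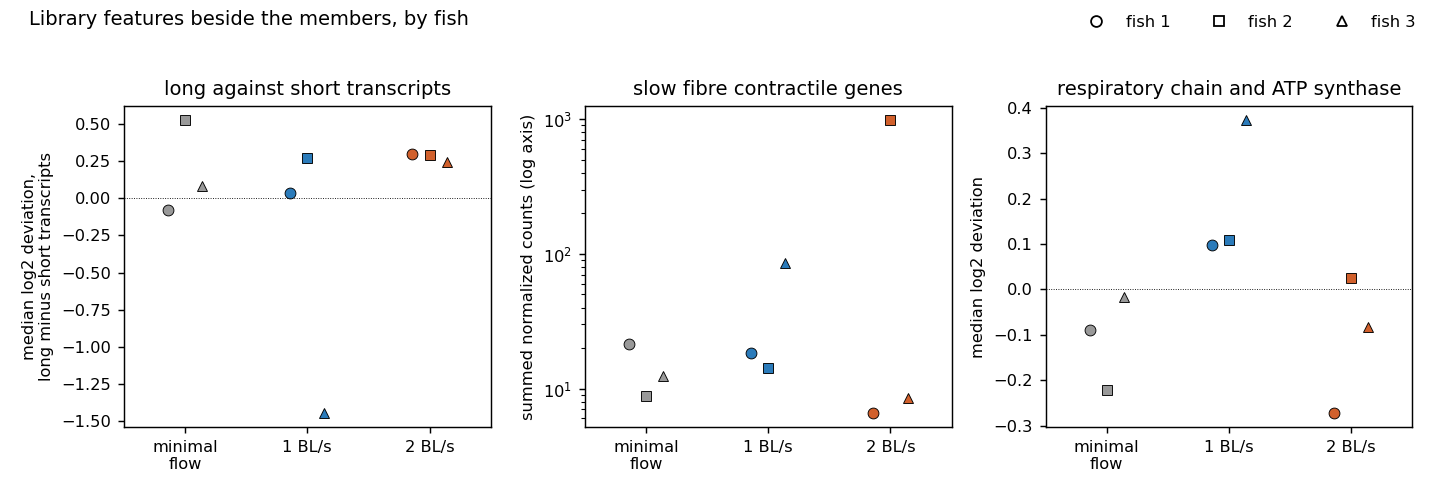
Values per fish at minimal flow, 1 BL/s and 2 BL/s: the median log2 deviation of long minus that of short transcripts (left), the summed normalized counts of slow fibre contractile genes on a log axis (middle), and the median log2 deviation of all members (right). Symbols are single fish. Fish 3 at 1 BL/s is lowest on the left (-1.44) and highest on the right (0.37), and fish 2 at 2 BL/s stands apart in the middle (981).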

How the data were processed

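White muscle RNAseq of 9 fish was used as deposited. The tools come from the study's methods and the submitters' processing notes. The authors used TopHat2 2.0.13 to align the read pairs to the seabream genome, SAMtools 1.2 to drop secondary alignments, HTSeq 0.6.1p1 to count and DESeq to compare. The study gives the assembly by a link to NCBI, without a name. Which strand the counting used and how it treated reads that match several places are not stated in the sources used here, so near-identical copies and overlapping or antisense models are uncertain. The deposited counts are raw, one whole number for each gene model in each fish. Other columns hold the authors' group means, fold changes and p-values and were not used, nor were 2 columns without a sample label.

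Each comparison took its 6 fish into a quasi-likelihood fit of edgeR 4.0.16 (R 4.3.3) after TMM and filterByExpr, and p-values were adjusted by Benjamini-Hochberg over all gene models kept. The fit was also run on simulated independent counts, which held no library that stood apart and no tank effect, so that run does not bear on either. The SE was the absolute log2 fold change over the root of F. For normalized counts, effective library sizes (library size times TMM factor) were brought to a geometric mean of 1 across the 9 fish, and each count was divided by that of its fish. Fish deviations are log2 (normalized count + 1) minus the mean over 9 fish. DESeq2 1.42.0, limma 3.58.1, size factors of DESeq2, library size alone, no filter, a fit of all 9 fish, a replicate block and leaving out single fish were the alternatives. Library size alone and the joint removal of 2 fish were chosen after seeing the data. Python 3.11.15 with numpy 2.4.6, pandas 2.3.3 and matplotlib 3.10.9 was used for summaries. Named are members past the unadjusted threshold of 0.05 in any comparison, the 3 with the most counts in each complex, and the member with the smallest p in each complex and comparison. A few other members are named after their values were seen (subunits 5 and 8 of the alpha subcomplex, and Sa_10430.2.1), as are single models of the lists. The 6 pathway and 7 marker lists are text searches on the descriptions. The members and the lists were chosen with earlier results of these data known.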

Additional observations from a re-analysis of the deposited data

How the results depend on the processing

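At 1 BL/s vs. controls, 41 of 45 members were above 0 with DESeq2, limma, size factors of DESeq2, the replicate block and library size alone, but the number past the unadjusted threshold (3 by edgeR with TMM) was 0 with DESeq2 (114 of all 3902 gene models), 1 of 60 without the low-count filter (527 of 13211), 8 with library size alone, all higher (138 of 3902, 99 of them higher) and 0 to 2 when single fish were left out. At 2 vs. 1 BL/s it was 2 by edgeR with TMM, 1 with DESeq2 (132 of 3963), 6 of 46 in a fit of all 9 fish (206 of 4241), 0 with library size alone (193 of 3963, 29 of them lower) and 0 to 4 without single fish, and at 2 BL/s vs. controls 2 with library size alone (280 of 3947). With library size alone the medians at 2 BL/s vs. controls were 0.24 for the members, 0.17 for complex I, 0.37 for complex III, 0.29 for complex IV and 0.22 for complex V, and at 2 vs. 1 BL/s they were -0.089 for the members, -0.13 for complex I, 0.017 for complex III and -0.064 for complex V. The median of complex IV at 2 vs. 1 BL/s lay between -0.65 and -0.13 without single fish, and that of complex II between -0.10 and 0.23, or -0.26 without both libraries that stood apart. Of all gene models, 527, 565 and 633 passed the unadjusted and 47, 92 and 72 the adjusted threshold without the low-count filter (in the order of the report's comparisons), and 1 and 2 the adjusted one with DESeq2 in the last 2 comparisons. Without single fish, 117 to 273 passed the unadjusted threshold at 2 BL/s vs. controls and 120 to 299 at 2 vs. 1 BL/s. For 1 BL/s vs. controls that count is not given here, so the 0 to 2 members cannot be set against it.

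Cytochrome c (Sa_33485.2.1) had log2 fold changes between -0.27 (without fish 3 at 1 BL/s) and 0.33 at 1 BL/s, between -0.066 and 0.28 at 2 BL/s (lowest without fish 2), and between -0.24 and 0.39 when the speeds were compared, where it was below 0 without fish 1 or 2 of the 1 BL/s group or fish 2 of the 2 BL/s group, and Sa_33224.3.1 turned to 0.077 at 2 BL/s with library size alone. The cause was not tested. The labels do not say whether replicate numbers pair the fish, and this was not tested. The correlation of the deviations lay between -0.03 and 0.18 in the 9 pairs of same-numbered fish, and between -0.20 and 0.13 in pairs with different numbers. With the replicate block, 2 members rose at 1 BL/s, 0 passed at 2 BL/s and 1 fell between the speeds. The share of all gene models called with the block is not given here, so these counts cannot be set against it. With 3 fish per group and 1 tank per speed, 42, 45 and 43 of the 45 members did not pass the unadjusted threshold in the 3 comparisons by edgeR with TMM. None of the 45 passed after adjustment in this fit, so no member was separated from the spread between fish once all gene models tested were taken into account. The 16 counted members under the low-count filter were not tested.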
